A study of Mus musculus with 13 samples.

Results

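The genes described here are 10 genes of smooth muscle or of myoepithelium, the basal cell layer of the mammary gland. All but Trp63 serve contraction. The 10 were chosen by symbol, with earlier results of these data known: Acta2, Actg2, Myh11, Myl9, Mylk, Cnn1, Tagln, Lmod1, Trp63 and Oxtr. All 10 were found among the 24421 gene symbols of the count table, and all 10 passed the filter on low counts in both model fits. Keratins were not part of the set and are used only as references.

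Myoepithelial cells wrap the luminal cells of ducts and alveoli and squeeze milk out when the hormone oxytocin binds its receptor. They build the same contractile filaments as the smooth muscle cells of vessel walls, so RNA from either cell type carries these transcripts. The transcription factor p63, encoded by Trp63, marks basal epithelial cells and is no contractile protein, which makes it the epithelial member of the set.

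RNA was sequenced from 11 tumors and from 2 mammary glands without cancer, all of female mice. All 13 libraries came from FVB/N-TgN mice of stock 202Mul/J, which bears the transgene MMTV-HER2/neu, with the genotype entered as wild type. The transgene is a rat HER2/Neu cDNA behind the mouse mammary tumor virus promoter, which is active in breast epithelium, and tumors arise spontaneously. The study asked how primary tumors compared with tumors that came back after therapy, with and without stavudine, a nucleoside inhibitor of reverse transcriptase.

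The 3 primary untreated tumors and the 2 glands came from mice on plain water. The 3 primary stavudine tumors came from mice whose water held 1 mg/mL stavudine. The 3 recurrent 17-DMAG tumors had grown back after injections of the HSP90 inhibitor 17-DMAG, at 20 mg/kg, had cleared the first tumor, and the injections went on while they regrew. The 2 recurrent 17-DMAG plus stavudine tumors had come back likewise under stavudine water. The labels give no ages, no reproductive stage of the glands, and no start of stavudine for a given mouse. Libraries are named below by group and replicate number.

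Library totals lay between 39921388 and 56887708 counts. Milk protein genes took 37.7% of the counts in gland 2, 3.16% in gland 1 and 0.490% to 2.47% in tumors, and the normalization factor was 0.493 in gland 2 against 0.999 to 1.12 elsewhere. A list of luminal epithelial genes took 0.231% to 0.398% of the counts of each tumor, and 0.288% and 0.157% in the glands. Skeletal muscle genes took 0.451% in primary untreated tumor 1, 0.161% in recurrent 17-DMAG tumor 3, 0.604% in recurrent 17-DMAG plus stavudine tumor 2 and 0.298% in gland 2, and less than 0.1% in the other libraries. Fibroblast genes took 0.804% in recurrent 17-DMAG tumor 1 and 0.0330% to 0.248% in the other tumors.

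Smooth muscle genes are classically switched on by serum response factor, which binds the CArG box, a run of A and T between a pair of C and a pair of G. Promoter windows from 250 bases before to 50 bases after a start site were available (GRCm38.p6) for 6 of the 10 genes, which were Acta2, Myl9, Mylk, Cnn1, Lmod1 and Oxtr. That start site need not be the end of the gene span printed below. The windows of Mylk (chr16:34784700-34784999) and Oxtr (chr6:112489776-112490075) lie inside the gene span. The other 4 were Myh11, Tagln, Actg2 and Trp63. The box was searched as CC and GG with 6 bases between them, at least 5 of them A or T, a pattern that reads the same on both strands. The 4 matches are printed 5′ to 3′ on the gene's strand because they show this element in 2 members of the set, with the box in capitals.
Myl9, upstream box: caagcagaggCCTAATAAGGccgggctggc
Myl9, downstream box: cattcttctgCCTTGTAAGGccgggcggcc
Acta2, upstream box: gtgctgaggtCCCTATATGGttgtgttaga
Acta2, downstream box: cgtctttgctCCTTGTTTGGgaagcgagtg

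The printed Myl9 runs lie on the plus strand at chr2:156775293-156775322 and chr2:156775355-156775384, with boxes starting at positions -161 and -99 from the start site of the window. The Acta2 runs lie on the minus strand at chr19:34255438-34255467 and chr19:34255388-34255417, with boxes starting at -84 and -34. Both Acta2 runs lie inside the gene span printed below. The upstream Myl9 box has only A and T inside, a form held by 1.63% of the 32851 promoter windows of the same length. The form with at least 5 A or T was held by 9.98%. The windows of Cnn1, Lmod1, Mylk and Oxtr held no match, which says only that these letters are not in these windows.

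The myosin heavy chain Myh11 and calponin Cnn1 were low in every tumor. The median of the fitted differences between the mean of the 4 tumor groups and the glands was -1.89 on the log2 scale over the 10 genes, against -0.02 over all 17135 genes tested. In that comparison edgeR called 5 of the 10 genes at an adjusted p under 0.05, all lower in tumors (Acta2, Myh11, Cnn1, Mylk and Tagln), where 8.81% of all genes were called lower. The fitted difference was below 0 for 9 of the 10, where it was for 51.6% of all genes, and Lmod1 was the exception. In bulk tissue, fewer cells of a type and less RNA per cell cannot be told apart.

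**Figure D1:**
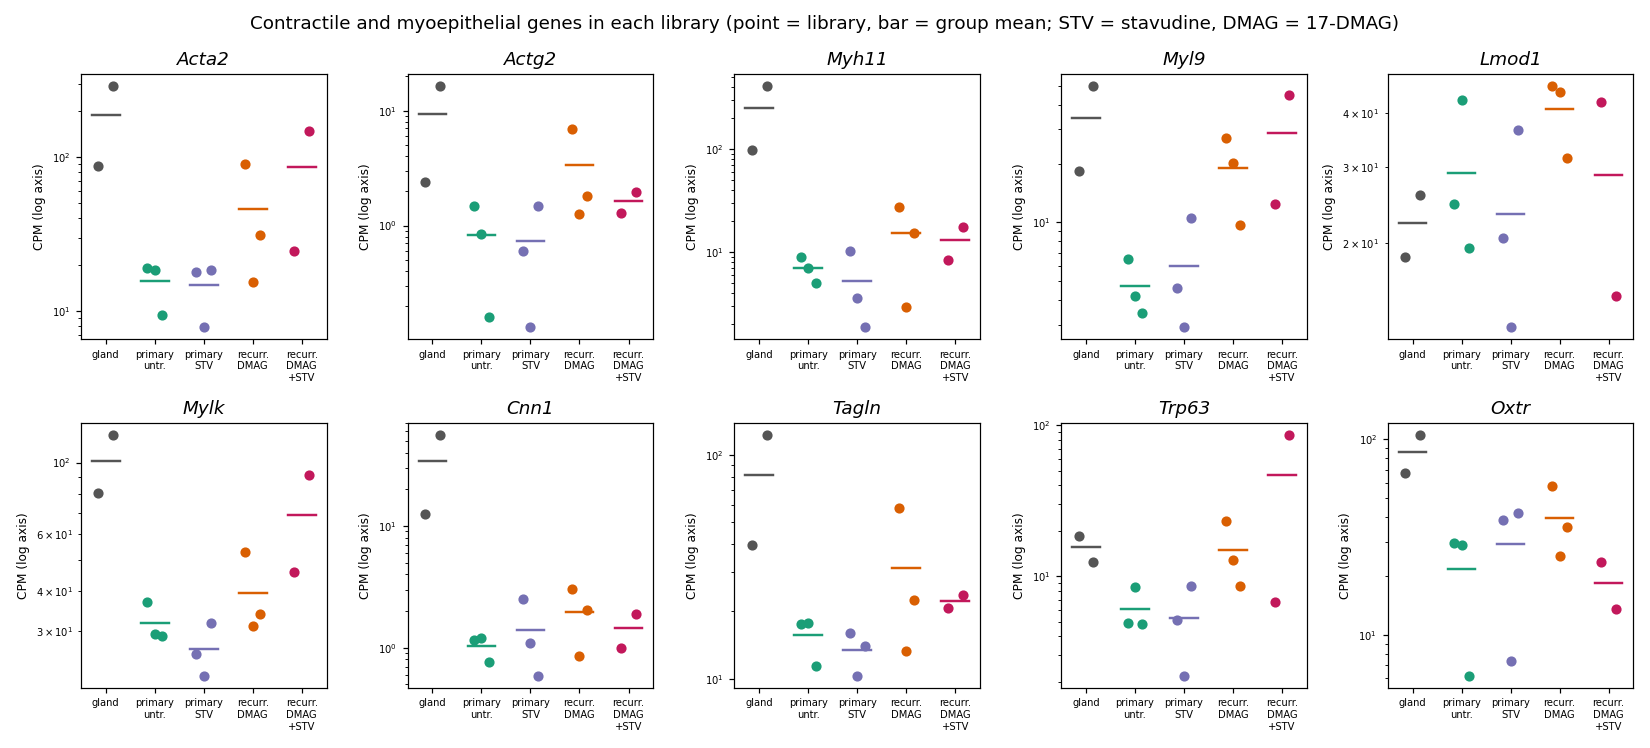
CPM (log axis) of the 10 genes, with 1 panel per gene, 1 point per library and a bar at each group mean. For Myh11, Cnn1 and Oxtr all 11 tumors lie below both glands, whereas the Lmod1 points of tumors and glands interleave and a single recurrent 17-DMAG plus stavudine tumor stands at 86.4 CPM for Trp63.

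Acta2 (GRCm38 chr19:34240336-34255585, minus strand) encodes smooth muscle alpha-actin, the main actin of the contractile filament. Levels are given as CPM, the count per 1000000 counts of a library whose size was normalized by TMM. Acta2 reached 87.3 and 289.7 CPM in glands 1 and 2, against 19.0, 18.4 and 9.38 CPM in primary untreated tumors 1, 2 and 3. It stood at 18.0, 7.85 and 18.5 CPM in the primary stavudine tumors. The recurrent 17-DMAG tumors held 90.8, 15.4 and 31.0 CPM, and the recurrent 17-DMAG plus stavudine tumors 24.6 and 148 CPM. Thus 9 of 11 tumors lay below both glands, and recurrent 17-DMAG tumor 1 and recurrent 17-DMAG plus stavudine tumor 2 lay between the glands. Without TMM factors 10 lay below both glands and 1 above both. Over the 4 tumor groups Acta2 was 6.10-fold lower than in the glands (log2 -2.61 ± 0.61, standard error here and below, adjusted p = 0.0251 by edgeR). For primary untreated tumors alone the difference was -3.60 ± 0.89 on the log2 scale (adjusted p = 0.0616), which missed the threshold although the groups did not overlap.

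Actg2 (chr6:83512909-83536251, minus strand) encodes smooth muscle gamma-actin. The glands held 2.38 and 16.3 CPM, a 6.86-fold gap that was the widest between the glands for any member (3.003-fold without TMM factors). Primary untreated tumors held 1.47, 0.836 and 0.1604 CPM and the primary stavudine tumors 0.599, 0.131 and 1.48 CPM. Recurrent 17-DMAG tumors held 6.97, 1.25 and 1.80 CPM and the recurrent 17-DMAG plus stavudine tumors 1.29 and 1.96 CPM. Every tumor but recurrent 17-DMAG tumor 1 lay below both glands. The difference over the 4 tumor groups, -2.79 ± 0.81 on the log2 scale, was not called (adjusted p = 0.0532 by edgeR), nor was that of the primary untreated tumors (-3.50 ± 1.18, adjusted p = 0.113).

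Myh11 (chr16:14194527-14292188, minus strand) encodes the smooth muscle myosin heavy chain, the motor of the contractile filament. Its level was 98.5 and 408 CPM in the glands. It was 8.88, 6.95 and 5.03 CPM in the primary untreated tumors and 10.2, 3.52 and 1.86 CPM in the primary stavudine tumors. It was 27.4, 2.90 and 15.2 CPM in the recurrent 17-DMAG tumors, and 8.25 and 17.5 CPM in the recurrent 17-DMAG plus stavudine tumors. Of all tumors the highest was recurrent 17-DMAG tumor 1, still below gland 1, so tumors and glands did not overlap. Myh11 was 27.6-fold lower over the 4 tumor groups (log2 -4.79 ± 0.62, adjusted p = 0.00221 by edgeR) and 36.4-fold lower in primary untreated tumors (-5.18 ± 0.99, adjusted p = 0.0397). The first call held in all 20 alternatives run for it. These include the fit without gland 2 (log2 -3.34, adjusted p = 0.0445), where a lone gland is assumed to vary like the tumor groups.

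Myl9 (chr2:156775408-156781657, plus strand) encodes the regulatory light chain of the smooth muscle motor. The glands held 18.3 and 49.7 CPM. Among primary untreated tumors the levels were 6.51, 4.20 and 3.45 CPM, and among primary stavudine tumors 4.60, 2.92 and 10.5 CPM. Among recurrent 17-DMAG tumors the levels were 27.0, 20.1 and 9.70 CPM, and among recurrent 17-DMAG plus stavudine tumors 12.4 and 44.9 CPM. All 6 primary tumors lay below gland 1, and 3 of the 5 recurrent tumors lay between the glands. Without TMM factors 8 tumors lay below both glands and 2 above both. Neither the difference over the 4 tumor groups (log2 -1.61 ± 0.52, adjusted p = 0.0746 by edgeR) nor that of the primary untreated tumors (-2.85 ± 0.70, adjusted p = 0.0616) was called.

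Mylk (chr16:34745199-35002436, plus strand) encodes myosin light chain kinase, which starts contraction by phosphorylating the light chain. The glands held 80.6 and 122 CPM. The primary untreated tumors held 36.9, 29.5 and 29.0 CPM and the primary stavudine tumors 25.5, 21.8 and 31.9 CPM. The recurrent 17-DMAG tumors held 52.8, 31.2 and 33.9 CPM and the recurrent 17-DMAG plus stavudine tumors 45.9 and 91.6 CPM. Only the last of these exceeded gland 1, and without TMM factors it lay above both glands. Mylk was lower by 2.61-fold over the 4 tumor groups (log2 -1.38 ± 0.25, adjusted p = 0.00875 by edgeR) and by 3.19-fold in primary untreated tumors (-1.67 ± 0.33, adjusted p = 0.0404).

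Cnn1 (chr9:22099221-22109221, plus strand) encodes calponin, an actin-binding protein of mature smooth muscle and myoepithelium. The glands held 12.6 and 56.1 CPM. Primary untreated tumors held 1.15, 1.20 and 0.762 CPM and the primary stavudine tumors 2.51, 1.09 and 0.590 CPM. Recurrent 17-DMAG tumors held 3.03, 0.849 and 2.04 CPM and the recurrent 17-DMAG plus stavudine tumors 0.997 and 1.90 CPM. No tumor reached gland 1. Cnn1 was 24.0-fold lower over the 4 tumor groups (log2 -4.59 ± 0.51, adjusted p = 0.0011 by edgeR, called in all 20 alternatives) and 32.9-fold lower in primary untreated tumors (-5.04 ± 0.80, adjusted p = 0.0295).

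Tagln (chr9:45929628-45936058, minus strand) encodes transgelin, an early actin cross-linking marker of smooth muscle that fibroblasts can also make. The glands held 39.6 and 123 CPM. Among primary untreated tumors the levels were 17.6, 17.8 and 11.4 CPM and among primary stavudine tumors 16.05, 10.3 and 14.0 CPM. Among recurrent 17-DMAG tumors the levels were 58.0, 13.3 and 22.4 CPM and among recurrent 17-DMAG plus stavudine tumors 20.7 and 23.7 CPM. Recurrent 17-DMAG tumor 1 was the only tumor above gland 1. Among tumors it had the largest share of fibroblast counts, and also of several other lists, such as basal epithelial, vascular smooth muscle and endothelial genes. Without TMM factors it lay above both glands. Tagln was 4.17-fold lower over the 4 tumor groups (log2 -2.06 ± 0.43, adjusted p = 0.0152 by edgeR) and was not called in primary untreated tumors alone (-2.38 ± 0.58, adjusted p = 0.0606).

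Lmod1 (chr1:135324813-135368065, plus strand) encodes leiomodin 1, which nucleates actin filaments in smooth muscle. The glands held 18.6 and 25.8 CPM. The primary untreated tumors held 24.7, 43.1 and 19.5 CPM and the primary stavudine tumors 20.6, 12.8 and 36.6 CPM. The recurrent 17-DMAG tumors held 46.3, 44.8 and 31.6 CPM and the recurrent 17-DMAG plus stavudine tumors 42.4 and 15.02 CPM. Here 6 of 11 tumors lay above both glands and 2 lay below both, and without TMM factors 9 lay above both and none below. The fitted difference was 0.43 ± 0.45 on the log2 scale over the 4 tumor groups (adjusted p = 0.546 by edgeR), so a gain or a loss of Lmod1 was not detected.

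Trp63 (chr16:25683763-25892088, plus strand) was the other member without a call in either gland comparison whose level in some tumors passed both glands with TMM factors. Without these factors Myl9 did so too, in 2 tumors. The glands held 18.5 and 12.5 CPM. Primary untreated tumors held 4.92, 8.46 and 4.79 CPM and the primary stavudine tumors 5.16, 2.198 and 8.56 CPM. Recurrent 17-DMAG tumors held 23.4, 12.8 and 8.63 CPM and the recurrent 17-DMAG plus stavudine tumors 6.71 and 86.4 CPM. All 6 primary tumors lay below both glands, whereas recurrent 17-DMAG tumor 1 and recurrent 17-DMAG plus stavudine tumor 2 lay above both, the latter at 3.70 times the next tumor. Without TMM factors, which raise gland 2, 4 of the 6 primary tumors lay below both glands. The difference was -0.34 ± 0.70 on the log2 scale over the 4 tumor groups (adjusted p = 0.769 by edgeR) and -1.36 ± 0.84 for primary untreated tumors (adjusted p = 0.333).

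Oxtr (chr6:112473683-112491035, minus strand) encodes the oxytocin receptor. The glands held 67.2 and 106 CPM. Among primary untreated tumors the levels were 29.6, 28.9 and 6.18 CPM and among primary stavudine tumors 38.8, 7.33 and 41.8 CPM. Among recurrent 17-DMAG tumors the levels were 57.7, 25.3 and 35.7 CPM and among recurrent 17-DMAG plus stavudine tumors 23.5 and 13.5 CPM. All 11 tumors lay below both glands (10 without TMM factors), but the difference was not called over the 4 tumor groups (log2 -1.73 ± 0.56, adjusted p = 0.0744 by edgeR) or in primary untreated tumors (-2.002 ± 0.75, adjusted p = 0.141).

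For primary untreated tumors against glands, edgeR called 3 of the 10 genes lower (Myh11, Cnn1 and Mylk), where 1.83% of all genes were called lower. In 9 of the 10 the groups did not overlap and the tumors were lower, against 20.4% of all genes, and without TMM factors in 8 of the 10, against 9.20%. DESeq2 called 8 of the 10 and 2352 of all 17135 genes. When the tumors rich in skeletal muscle genes were left out, edgeR called 0 of the 10 and 0 of all genes. The 3 calls depended on single libraries, and so did the 361 calls over all genes. None of the 3 was left without primary untreated tumor 1, 2 or 3, where 31, 0 and 0 of all genes were called. The same held without recurrent 17-DMAG tumor 3, where 50 of all genes were called. Leaving out primary stavudine tumor 1, 2 or 3 left 1 call each time, where 35, 56 and 49 of all genes were called. Without recurrent 17-DMAG tumor 1 there were 6 calls, where 1360 of all genes were called. Calls also changed without either gland, but there the other gland has no replicate and the tumor groups alone supply the spread.

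Over all 4 tumor groups, 3 of the 10 genes lay below both glands in every tumor (Myh11, Cnn1 and Oxtr), against 7.37% of all genes. Without TMM factors this held for Myh11 and Cnn1, against 3.03% of all genes, and Oxtr in recurrent 17-DMAG tumor 1 (61.1 CPM) exceeded gland 2 (52.1 CPM). Of the 5 calls, those of Acta2, Mylk and Tagln were lost without gland 2, where their fitted differences were -1.41, -0.97 and -0.93 on the log2 scale. Acta2 and Tagln were also lost when the 3 tumors rich in skeletal muscle genes were left out, at -3.02 (adjusted p = 0.0577) and -2.03 (adjusted p = 0.0856).

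**Figure D2:**
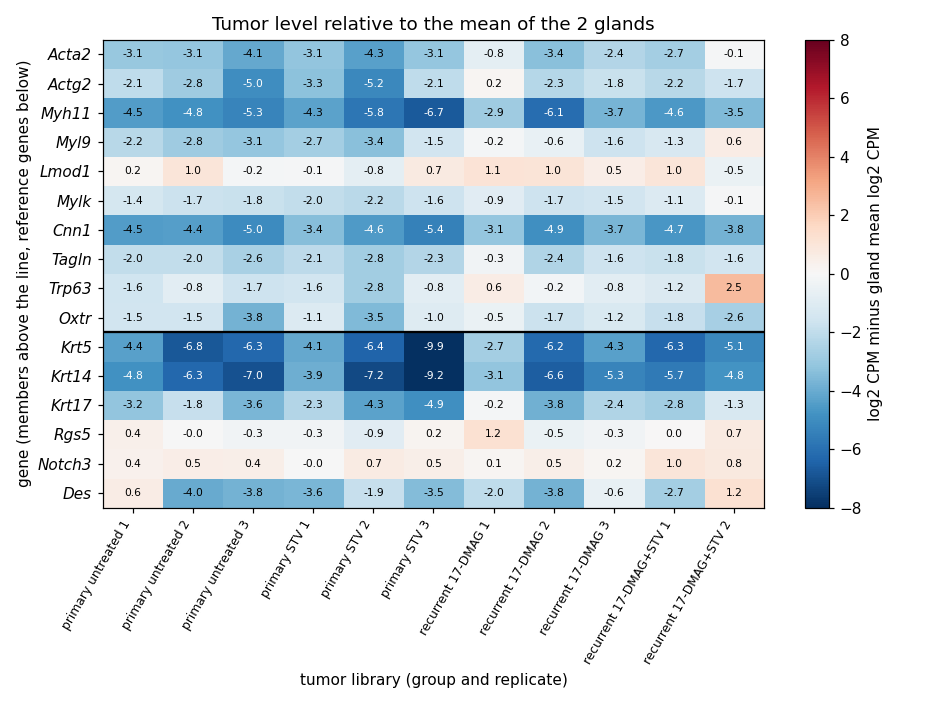
Log2 CPM (prior count 2) of each tumor minus the mean log2 CPM of the glands, for the 10 genes above the line and 6 reference genes below it, with blue for lower and red for higher. Myh11 and Cnn1 are blue in every tumor, as are Krt5 and Krt14, whereas Lmod1, Rgs5 and Notch3 lie closer to 0. Des runs from -4.00 in primary untreated tumor 2 to 1.20 in recurrent 17-DMAG plus stavudine tumor 2. Trp63 turns red in recurrent 17-DMAG plus stavudine tumor 2.

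The proportions among the 10 genes differed between tumors and glands, and these ratios within a library do not depend on the normalization. They were chosen after the values were seen and are given without a test. The count of Acta2 was 0.887 and 0.711 times that of Myh11 in the glands, and 1.77 to 9.95 times in the tumors with a median of 2.65. The count of Lmod1 was 0.189 and 0.0634 times that of Myh11 in the glands and 0.857 to 19.7 times in tumors. All 11 tumors lay above both glands in either ratio. The ratio of Myh11 to Cnn1 was 7.84 and 7.27 in the glands and 3.14 to 9.25 in tumors, with the glands inside the tumor range.

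Levels of different genes can be compared only per length, as CPM per kilobase of exon. On that scale Acta2 led in both glands, at 39.8 and 132, followed by Tagln at 19.9 and 62.1. The median level over tumors was 8.86 for Tagln, 8.41 for Acta2, 8.34 for Myl9 and 7.995 for Lmod1, which are close to each other. Median tumor levels per kilobase of 6.04 for Oxtr, 2.83 for Mylk, 1.09 for Myh11, 1.01 for Trp63, 0.829 for Actg2 and 0.422 for Cnn1 followed. Each of these ranges over tumors overlapped that of its neighbours in the order. Sequence shared with other genes was small: 0.326% of the 50-base windows of Acta2, 0.34% of those of Myh11 and 0.107% of those of Mylk occurred in transcripts of another gene, and none for the other 7 members.

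Other genes of contraction went both ways. Of 29 further genes of the contractile apparatus, edgeR called 7 lower and 1 higher over the 4 tumor groups, where 8.81% of all genes were called lower, and the median log2 difference was -0.03. The largest decreases were in Pgm5 (-3.20), Synpo2 (-3.07) and Cav1 (-2.36), which encode proteins of adhesion plaques, actin bundles and caveolae, and the increase was in Cald1 (1.02), which encodes the actin-binding caldesmon.

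Of 12 regulators of the contractile program, 11 were tested and edgeR called 0 over the 4 tumor groups. At an unadjusted p under 0.05 there were 4 lower and 2 higher, where 19% and 10.6% of all genes were. The smallest p-values belonged to Mef2c, a transcription factor of muscle (log2 -1.04 ± 0.34, adjusted p = 0.0732), and to Notch3, a receptor of vessel wall smooth muscle (0.49 ± 0.18, adjusted p = 0.0998).

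Basal epithelial genes other than the members had a median log2 difference of -1.92 over the 4 tumor groups. Of 22, edgeR called 7 lower and 2 higher, where 8.81% and 1.6% of all genes were. The largest decreases were in the desmosomal cadherin Dsc3 (-5.67) and the basal keratins Krt14 (-5.28) and Krt5 (-5.18). The increases were in the laminin receptor subunit Itgb4 (0.87) and the growth factor receptor Egfr (0.60), neither of which is confined to basal cells. Krt14 had 19.8 and 33.8 CPM in the glands against 0 to 2.92 CPM in tumors. It was 0 in primary stavudine tumor 3, which allows a level of up to 0.0633 CPM, the worth of 3 counts there. Krt17 was not called (log2 -2.88 ± 0.84, adjusted p = 0.0548).

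Vascular smooth muscle and pericyte genes had a median log2 difference of 0.02, with 3 of 17 tested called lower and 0 higher. Those 3 were Ntrk3 (-4.81), Casq2 (-2.59) and Gucy1a3 (-1.73). For this list and those that follow, the share of all genes called lower was 8.81%. Rgs5, a marker of pericytes, had 48.8 and 36.1 CPM in the glands against 22.0 to 96.7 CPM in tumors (log2 0.13 ± 0.43, adjusted p = 0.867). The intermediate filament gene Des, which skeletal muscle also makes, had 8.89 and 60.5 CPM in the glands. Its highest tumor levels, 53.5 and 34.3 CPM, were in 2 of the 3 tumors with the largest skeletal muscle share. Fibroblast genes, with 1 of 12 called lower (Pdgfra), had a median log2 difference of -1.48, endothelial genes, with 4 of 12 called lower, had -1.25 and skeletal muscle genes, with 0 of 15 called and 0 at an unadjusted p under 0.05, had -2.02. Adipocyte genes, with 10 of 12 called lower, had -3.96, and leukocyte genes, with 5 of 11 called lower, had -2.13. How much each cell type contributed to the levels of the 10 genes was not tested.

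Stavudine and the 10 genes were compared first in primary tumors. All 10 overlapped between the primary stavudine and the primary untreated tumors, where 10.8% of all genes did not, and fitted differences ran from -0.43 for Myh11 to 0.43 for Oxtr on the log2 scale. The edgeR fit of the 11 tumors called 0 of the 10 genes and 0 of all 16870 (percent called 0). At an unadjusted p under 0.05 there were 0 of the 10 and 3.76% of all genes, and DESeq2 and limma voom also called 0 of the 10. The standard errors, from 0.29 for Mylk to 0.98 for Actg2, set the size of a difference that this comparison could show.

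Between recurrent and primary tumors the fitted differences of nearly all of these genes lay above 0, but no gene passed the edgeR threshold. Without stavudine, all 10 fitted differences between recurrent 17-DMAG and primary untreated tumors were above 0, where 49.4% of all genes were. Of the 10, edgeR called 0, as it did over all genes (percent called 0), with 1 at an unadjusted p under 0.05 and in the higher direction, where 4.79% of all genes were. DESeq2 and limma voom called 0 of the 10. The 1 gene was Myl9 (log2 1.99 ± 0.62, adjusted p = 0.509 by edgeR). Myl9 and Trp63 (1.28 ± 0.81, adjusted p = 0.553) were the members in which all 3 recurrent tumors lay above all 3 primary tumors, against 7.65% of all genes.

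Much of this arm rested on recurrent 17-DMAG tumor 1, which was the highest or second highest tumor for all 10 genes. Without it the log2 difference of Acta2 went from 1.54 to 0.58, that of Tagln from 0.99 to 0.20, that of Actg2 from 2.01 to 0.89 and that of Myh11 from 1.12 to 0.39. That of Myl9 went from 1.99 to 1.66. The same tumor held the largest shares of fibroblast (0.804%), endothelial (0.0441%), vascular smooth muscle and pericyte (0.118%), basal epithelial (0.181%), luminal (0.398%), leukocyte (0.0281%) and other contractile apparatus (0.763%) genes among tumors, and their part in these levels was not tested.

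Under stavudine, 9 of the 10 fitted differences between recurrent and primary tumors were above 0, where 51.8% of all genes were, and Oxtr was at -0.66 ± 0.80. Of the 10, edgeR called 0, as it did over all genes (percent called 0). At an unadjusted p under 0.05 and higher there were 4, where 5.42% of all genes were. These were Trp63 (3.14 ± 0.91, adjusted p = 0.336), Acta2 (2.56 ± 0.84, adjusted p = 0.405), Myl9 (2.26 ± 0.67, adjusted p = 0.342) and Mylk (1.39 ± 0.32, adjusted p = 0.31). DESeq2 called 3 of them and 331 of all genes. The 3 were Mylk (adjusted p = 0.0104), Trp63 (adjusted p = 0.0171) and Myl9 (adjusted p = 0.0398), and limma voom called 0. Both recurrent tumors lay above all 3 primary tumors for Acta2, Mylk, Tagln and Myl9, against 17.4% of all genes.

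These differences rested on recurrent 17-DMAG plus stavudine tumor 2. Without it the log2 difference of Trp63 went from 3.14 to 0.33, that of Acta2 from 2.56 to 0.73, that of Myl9 from 2.26 to 1.04 and that of Mylk from 1.39 to 0.79. Without the other recurrent tumor of this group Trp63 was called, at 4.02, with a lone tumor assumed to vary like the other groups. Tumor 2 was the highest of all tumors for Acta2, Mylk, Myl9 and Trp63, and also held the largest share of skeletal muscle genes (0.604%). It was not high for every member, with Lmod1 at 15.02 CPM and Oxtr at 13.5 CPM, each the lower of its group. Krt14 in this tumor, at 0.897 CPM, lay within the range of the primary tumors.

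**Figure D3:**
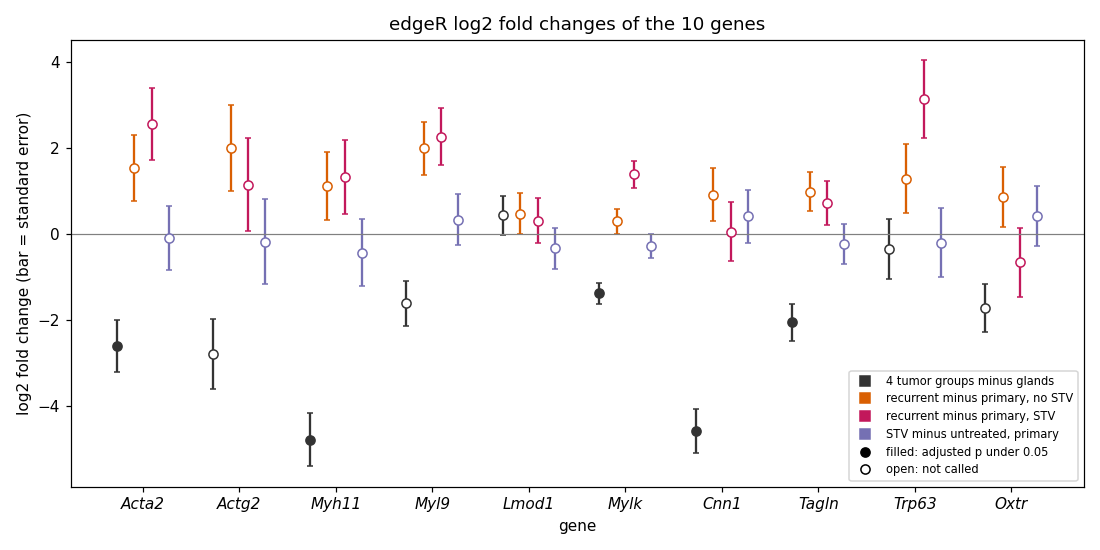
Fitted log2 fold changes of the 10 genes by edgeR with standard errors as bars, for the mean of the 4 tumor groups minus glands and for 3 contrasts among tumors, where filled points passed an adjusted p of 0.05. Filled points occur only in the gland contrast (Acta2, Myh11, Mylk, Cnn1 and Tagln), and the points for recurrent minus primary tumors lie above 0 except that of Oxtr under stavudine.

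Averaged over both water arms, all 10 differences between recurrent and primary tumors were above 0, where 50.3% of all genes were, with a median of 1.04 against 0.00 over all genes. Of the 10, edgeR called 0, as over all genes (percent called 0), and 5 had an unadjusted p under 0.05 and were higher, where 7.61% of all genes were. Those were Trp63 (2.21 ± 0.61), Myl9 (2.13 ± 0.45), Acta2 (2.05 ± 0.57), Tagln (0.86 ± 0.34) and Mylk (0.84 ± 0.21), with edgeR adjusted p-values of 0.287 for each but Tagln, which had 0.339. DESeq2 called 4 of them and 419 of all genes. The 4 were Myl9 (adjusted p = 0.000799), Trp63 (adjusted p = 0.0111), Acta2 (adjusted p = 0.0128) and Mylk (adjusted p = 0.0215), and limma voom called 0. In none of the 10 did all recurrent tumors exceed all primary tumors, against 0.652% of all genes. Without recurrent 17-DMAG plus stavudine tumor 2 the averaged differences were 0.82 for Trp63, 1.53 for Myl9, 1.15 for Acta2 and 0.55 for Mylk. With the 3 tumors rich in skeletal muscle genes left out they were 0.90, 1.84, 1.34 and 0.67.

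The 2 genes with the largest losses against glands, Myh11 and Cnn1, had smaller averaged differences of 1.22 ± 0.59 and 0.48 ± 0.46. Those of Actg2, Lmod1 and Oxtr were 1.58 ± 0.73, 0.39 ± 0.35 and 0.10 ± 0.52, none with an unadjusted p under 0.05. In the same averaged comparison no gene of the other lists was called by edgeR. Fibroblast genes had a median of 1.39 (6 of 12 with an unadjusted p under 0.05 and higher), skeletal muscle genes 1.35 (0 of 15), milk protein genes 1.25 (1 of 8), leukocyte genes 0.58 (4 of 10), endothelial genes 0.38 (1 of 12), basal epithelial genes 0.72 (3 of 21), other contractile apparatus genes 0.43 (5 of 29, and 1 lower), regulators 0.50 (1 of 11) and vascular smooth muscle and pericyte genes 0.30 (1 of 17, Ednra at 1.25 ± 0.44). The smallest p-values among contractile apparatus genes were those of Actn1 (0.60 ± 0.16), encoding an actinin, and Vcl (0.62 ± 0.22), encoding vinculin. Among the regulators that of Tead1, a partner of the Hippo pathway, was smallest (0.78 ± 0.21, adjusted p = 0.287), and among basal genes those of Sfn (1.23 ± 0.31) and Nrg1 (3.06 ± 1.03).

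Whether recurrence differed with and without stavudine was tested by the interaction. Of the 10 genes edgeR called 0, as over all genes (percent called 0), and 1 had an unadjusted p under 0.05, Mylk at 1.09 ± 0.43 (adjusted p = 0.6), where 7.84% of all genes had. DESeq2 and limma voom called 0 of the 10. Between the recurrent groups, with and without stavudine, edgeR again called 0 of the 10 and 0 of all genes, 1 of the 10 had an unadjusted p under 0.05 (Mylk, 0.81 ± 0.32), where 7.84% of all genes had, and DESeq2 and limma voom called 0. Oxtr was the only member whose recurrent groups did not overlap, lower under stavudine (-1.10 ± 0.81, adjusted p = 0.825), where 21.5% of all genes did not overlap in either direction. These contrasts share tumors with those above.

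Across the 11 tumors the 10 genes varied by different amounts. The ratio of the highest to the lowest tumor was 53.4 for Actg2, 39.3 for Trp63, 18.9 for Acta2, 15.4 for Myl9 and 14.8 for Myh11. It was 9.34 for Oxtr, 5.62 for Tagln, 5.14 for Cnn1, 4.20 for Mylk and 3.63 for Lmod1. Recurrent 17-DMAG tumor 1 was the highest tumor for 6 genes and recurrent 17-DMAG plus stavudine tumor 2 for 4, while primary stavudine tumor 2 was the lowest for 7. Together the 10 genes took 0.00741% of the counts in that last tumor, 0.0417% and 0.0474% in the 2 highest tumors, and 0.0499% and 0.0596% in the glands.

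The members did not vary as 1 block. Over 45 pairs, Pearson's r of log2 CPM across the 11 tumors had a median of 0.61 and ran from -0.07 (Cnn1 with Lmod1) to 0.92 (Acta2 with Mylk). These correlations are descriptions of 11 tumors from 4 groups whose tissue mixtures differed. Myh11 and Cnn1 varied together (r = 0.89, Spearman's rho = 0.88). They also followed Krt14, at r = 0.91 and 0.89, values that were 0.87 and 0.85 without recurrent 17-DMAG tumor 1. Krt14 was low in tumors, at 0 to 1.66 CPM per kilobase, so low counts enter its correlations.

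Acta2, Mylk, Myl9 and Trp63 formed another group of high correlations, with r of 0.91 for Acta2 with Trp63 and 0.90 for Myl9 with Trp63. Without recurrent 17-DMAG plus stavudine tumor 2, the highest tumor for all 4 genes, these were 0.82 and 0.86. Mylk with Trp63 then went from 0.89 to 0.71, and Acta2 with Myl9 from 0.85 to 0.76. Acta2 had a higher value with Tagln (0.98) than with Mylk (0.84) without that tumor. Actg2 then had 0.83 to 0.93 with these 4 genes, so they were not set apart from it. Trp63 and Krt14, both products of basal cells, had an r of 0.35, and Myl9 and Krt14 one of 0.33. Tagln followed Col1a1, a collagen gene of fibroblasts, at r = 0.95, a pair named after its values were seen. Col1a1 also had an r of 0.85 with Acta2 and with Myh11, and 0.76 with Mylk and with Actg2. It had 0.64 to 0.67 with Cnn1, Myl9 and Trp63, and 0.33 and 0.41 with Lmod1 and Oxtr. Rgs5 had 0.83 with Tagln, 0.82 with Acta2, 0.79 with Actg2 and 0.78 with Mylk, and 0.28 to 0.69 with the other members. Acta2 and Tagln had an r of 0.83, which was 0.98 without recurrent 17-DMAG plus stavudine tumor 2, where Acta2 was 6.26 times Tagln in counts against 0.760 to 1.56 times in the other tumors. Lmod1 and Oxtr correlated with each other (r = 0.70) and with Actg2 (r = 0.61 and 0.79), and less with the other members. This separation rested in part on recurrent 17-DMAG plus stavudine tumor 2. Without it Lmod1 had an r of 0.88 with Trp63, 0.79 with Myl9, 0.71 with Mylk and 0.67 with Acta2, and Oxtr had 0.79 with Acta2. Lmod1 stayed low with Myh11 (0.19) and Cnn1 (0.05) without that tumor, and Oxtr had 0.42 with Myh11, 0.49 with Cnn1 and 0.55 with Mylk.

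**Figure D4:**
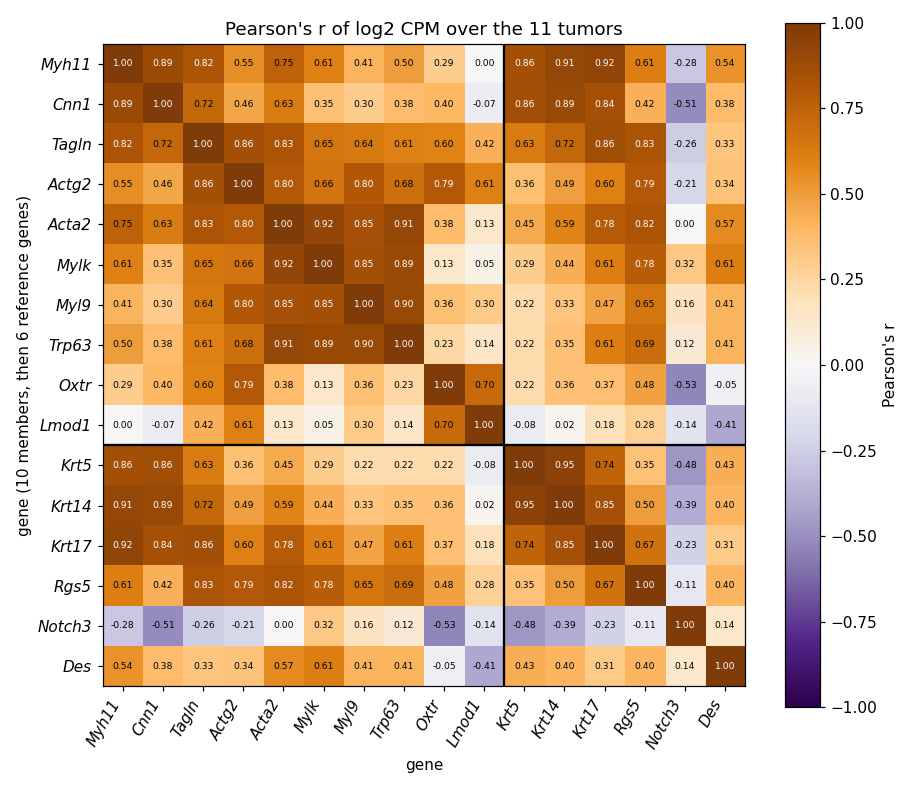
Pearson's r of log2 CPM (prior count 2) over the 11 tumors between the 10 genes and 6 reference genes, from -1 (purple) to 1 (orange), with lines between members and references. Myh11 and Cnn1 have their highest values with each other and with Krt5, Krt14 and Krt17. Acta2, Mylk, Myl9 and Trp63 are linked by values of at least 0.85, which are 0.71 to 0.86 without recurrent 17-DMAG plus stavudine tumor 2. Lmod1 is near 0 with several members, some of which reach 0.67 to 0.88 without that tumor.

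Likeness was ranked over 12692 genes whose log2 CPM averaged 1 or more, members left out. By this measure, the genes most like Acta2 over the 11 tumors were Ptprv (r = 0.97), Slco3a1 (0.97), Pla2r1 (0.96), Glud1 (0.96), Rasa3 (0.95), Klhl25 (0.95), Tdp1 (0.95) and Chst11 (0.94). Those most like Trp63 were Fat1 (0.94), Chadl (0.92), Tnfrsf21 (0.92), Enc1 (0.92), Pqlc3 (0.92), Scaf1 (0.92), Mgp (0.92) and Usp35 (0.91). Without recurrent 17-DMAG plus stavudine tumor 2 these values ran from 0.90 to 0.95 for Acta2 and from 0.78 to 0.87 for Trp63.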

How the data were processed

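Total RNA depleted of ribosomal RNA from 13 individual tumors or glands was made into stranded libraries and sequenced. Per the labels and the study's methods, the authors aligned reads with STAR to mouse GRCm38 (mm10) and counted them per gene with featureCounts (Subread 1.6.2); the deposited values were raw counts, not normalized. The strand setting and the handling of multimapping reads are not given in the sources used here. The labels give no animal number for a library, so p-values measure only the spread between these samples.

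The counts were analysed in R 4.3.3 with edgeR 4.0.16: filterByExpr, TMM, a robust quasi-likelihood fit with 1 mean per group and no covariate, two-sided tests, and Benjamini-Hochberg adjustment over all genes, called at an adjusted p under 0.05. Gland contrasts used all 13 libraries (17135 genes) and contrasts among tumors the 11 tumors (16870 genes). Standard errors (SE) are the absolute log2 fold change divided by the square root of the F statistic. CPM are counts per 1000000 of the TMM-scaled total, in which 3 counts equal 0.0587 to 0.0695 CPM in tumors and 0.0606 and 0.107 CPM in the glands, a floor that covers counting error only. DESeq2 1.42.0 and limma 3.58.1 (voom), other size factors, filters and left-out libraries were alternatives. The pipeline was tested on simulated data. Gene positions come from RefSeq and exon lengths from GENCODE (GRCm38).

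The members and gene lists were chosen with earlier results of these data known. From each other list at most 3 called genes per direction with the largest change were named or, where none was called, the 2 with the smallest p. Krt5, Krt14, Krt17, Rgs5, Notch3 and Des were references. For likeness, the 8 genes with the highest r with Acta2 and with Trp63 were named. The replicate numbers were not used to pair samples in the main fit, and a check of such pairing is given further on.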

Additional observations from a re-analysis of the deposited data

How the results depend on the processing

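The gland contrasts rest on 2 glands, and the contrasts among tumors on groups of 2 or 3. For primary untreated tumors against glands, where 361 genes and 3 of the 10 members were called, DESeq2 called 2352 and 8, the replicate block 4 and 0, a fit of the compared groups alone 0 and 0, and a fit without the tumors rich in skeletal muscle genes (chosen after seeing the data) 0 and 0. Leaving out 1 library gave 0 to 3381 genes and 0 to 7 members, and a log2 difference of Lmod1 from -0.0067 to 0.74. Over the 4 tumor groups, where 1785 genes and 5 members were called, DESeq2 called 3242 and 8, the replicate block 371 and 2, and the fit without those tumors 285 and 3; leaving out 1 library gave 535 to 4255 genes, 2 to 7 members, and a difference of Trp63 from -1.04 to 0.0093. Lower calls were 84.6% of all calls in that contrast and 66.7% by DESeq2 (86.7% and 70.2% for primary untreated tumors). The cause of these changes in calls was not tested. Whether replicate numbers pair the samples was checked by correlation. Over 23 same-numbered pairs r of deviations ran from -0.30 to 0.22, and 2 of 13 libraries were closest to their own number. Deviations from the mean of a group of 2 mirror each other, so this check could not exclude pairing. Among tumors edgeR called 0 genes in all 6 contrasts. DESeq2 called 17 (stavudine in primary tumors), 61 (recurrence without stavudine), 331 with 3 members (recurrence under stavudine), 277 (stavudine in recurrent tumors), 419 with 4 members (averaged recurrence) and 189 (interaction). A fit of the compared groups alone called 2 genes for recurrence under stavudine, and the fit without tumors rich in skeletal muscle genes called 1 for recurrence without it. Leaving out 1 library gave 0 to 1 genes for recurrence without stavudine, 0 to 100 with 0 to 1 members for recurrence under it, 0 to 141 for stavudine in recurrent tumors, 0 to 6 for averaged recurrence and 0 to 77 for the interaction. With limma voom Myh11 turned to 0.18 for stavudine in recurrent tumors and Tagln to 0.017 in the interaction. Without the tumors rich in skeletal muscle genes, log2 differences turned to 0.11 for Acta2 and 0.58 for Actg2 (stavudine in primary tumors), -0.49 for Cnn1 (recurrence under stavudine), -1.12 for Acta2, -0.93 for Myl9 and -1.43 for Trp63 (stavudine in recurrent tumors), and -1.23 for Acta2, -0.70 for Myh11, -1.60 for Myl9, 0.30 for Lmod1 and -1.14 for Trp63 (interaction). Positions of tumors against both glands without TMM factors, given with the results, were computed after seeing the data. The mean level of Lmod1 in the glands was 16.8 CPM without TMM factors against 22.2 CPM with them. Of 190 values for recurrence without stavudine under the alternatives, 190 kept direction and side of the threshold. Leaving out 1 library also turned some log2 differences, none of them called with all libraries. They ran from -0.36 to 0.22 for Acta2, -0.31 to 0.78 for Cnn1, -0.33 to 0.67 for Myl9, -1.18 to 0.54 for Actg2, -0.81 to 0.084 for Lmod1, -0.73 to 0.17 for Trp63 and -0.015 to 0.89 for Oxtr in stavudine in primary tumors. The ranges were -0.49 to 0.79 for Cnn1 and -0.64 to 0.86 for Lmod1 in recurrence under stavudine. Those ran from -0.90 to 1.90 for Acta2, -0.89 to 0.50 for Myh11, -0.87 to 0.31 for Tagln, -0.62 to 1.24 for Myl9, -1.45 to 0.086 for Actg2, -1.45 to 0.051 for Lmod1 and -1.16 to 2.53 for Trp63 in stavudine in recurrent tumors. Ranges were -0.070 to 0.68 for Lmod1 and -0.13 to 0.28 for Oxtr in averaged recurrence. The spans were -0.84 to 1.96 for Acta2, -0.48 to 1.12 for Myh11, -0.67 to 0.51 for Tagln, -0.97 to 0.94 for Myl9, -1.58 to 0.24 for Actg2, -1.14 to 0.36 for Lmod1 and -0.98 to 2.70 for Trp63 in the interaction.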
